A study of Rattus norvegicus with 12 samples.

Results

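L-DOPA and subthalamic stimulation, a pair of therapies for the dopamine-depleted striatum, were set against each other without passing through untreated animals: 3 arrays of rats given L-DOPA alone (DOPA) and 3 arrays of rats given high frequency stimulation of the subthalamic nucleus alone (HFS). These 6 arrays, of 12 in the series, were chosen by their titles, and the arrays with the same sample number (1 to 3) were compared as pairs. All 6 rats were males with a lesion of the dopamine neurons on the left side, made by 9 µg of the toxin 6-OHDA placed in the substantia nigra pars compacta. DOPA rats were then injected 2 times a day, 12 h apart, over 19 days. Each injection held L-DOPA (25 mg/kg) and benserazide (12.5 mg/kg), which blocks the conversion of L-DOPA outside the brain. HFS rats carried an electrode in the subthalamic nucleus of the lesioned side and were stimulated without interruption over 5 days. The current was 60 µA, the frequency 130 Hz and the pulse width 80 µs. An implant in DOPA rats is not described in the sources used here, the treatments differed in length, and stimulation ran until the animals were killed while the last L-DOPA injection came hours earlier, so drug, implant and timing cannot be told apart. The dorsal striatum was punched out and total RNA of each animal was hybridised to its own rat oligonucleotide array.

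The striatum receives dopamine from the substantia nigra and projects to the output of the basal ganglia through GABA neurons of 2 kinds. Direct pathway neurons carry the dopamine D1 receptor and make dynorphin and substance P, and indirect pathway neurons carry the D2 receptor and make enkephalin. L-DOPA, the precursor from which dopamine is made, restores movement but induces dyskinesia on long use, whereas stimulation of the subthalamic nucleus acts through the circuit and adds no dopamine precursor.

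The probe signal of each array was put on a log2 scale and quantile normalised among the 6 arrays, and every level below is on that scale. DOPA minus HFS is the difference of mean log2 signals, so that 1 unit is a doubling. All 17 projection neuron genes tested were well above background on all 6 arrays. So were 16811 of the 20395 genes tested, so this detection does not test the tissue label. Between 50.5% and 58.0% of spots were well above background on the DOPA arrays and between 60.3% and 63.2% on the HFS arrays, which did not overlap. Each of the 3 slides held 1 array of each group at a fixed place, so that place on the slide and therapy cannot be told apart.

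Of 20395 genes tested, 11 were higher in DOPA and 5 were lower in DOPA at an adjusted p under 0.1 in limma with the sample number as a block and a fold over 1.2 or under 0.8. These are 0.0539% and 0.0245% of the genes. For 5 of the 11 no HFS array, and for 4 of the 5 no DOPA array, was well above background. The lowest adjusted p was 0.00143. Without asking for an adjusted p, 1911 genes had p under 0.05, of which 898 were higher and 1013 lower in DOPA. The 3 DOPA arrays lay all above the 3 HFS arrays for 1342 genes (6.58%) and all below them for 1497 genes (7.34%), a separation for which an exact permutation test of 3 against 3 cannot give a two-sided p under 0.1. With no group difference, a share near 0.1 of genes would be expected to separate, both directions together. The number of genes past the limit moved with the choice of probes: asking for signals well above background on all 3 arrays of a group gave 37 higher and 42 lower genes, and dropping the filter gave none (2670 of 35565 genes then had p under 0.05, and 68.8% of the separate genes were higher in DOPA, against 47.3% here). Scaling to the 75th percentile turned the balance of calls, to 29 higher and 37 lower. Leaving out sample number 1 left 1 higher and 2 lower genes, leaving out number 3 left 1 and 0, and leaving out number 2 gave 18 and 13.

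**Figure D1:**
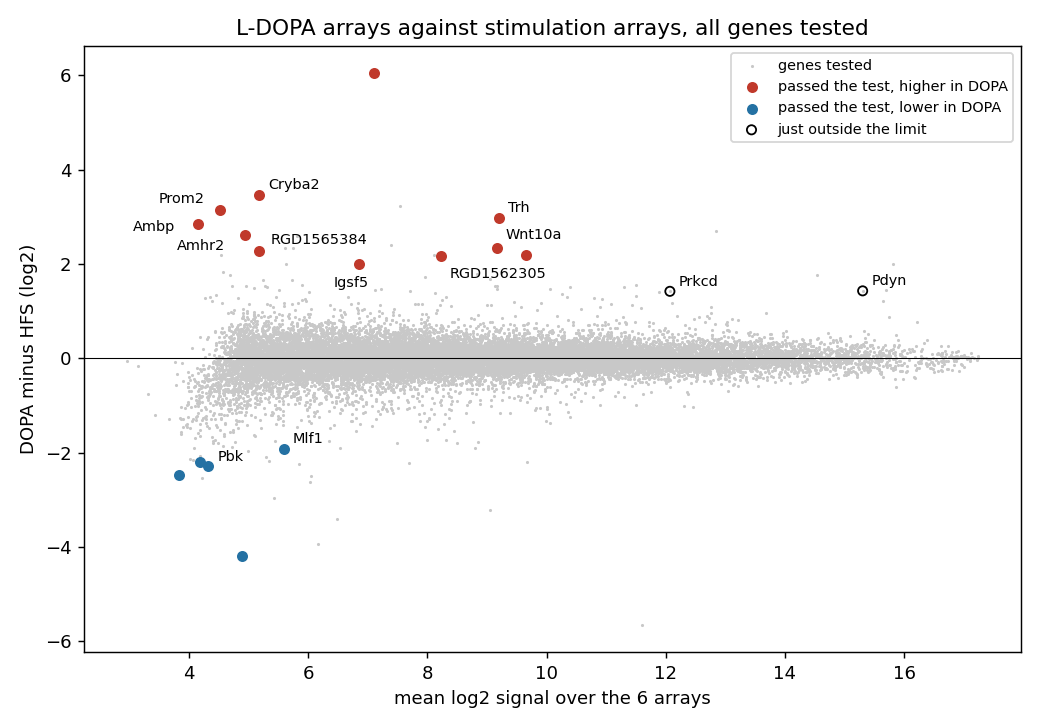
Mean log2 signal over the 6 arrays (horizontal axis) and DOPA minus HFS on the log2 scale (vertical axis) for the 20395 genes tested. Red and blue points passed the test as higher or lower in DOPA, and open circles mark Prkcd and Pdyn, just outside the limit; the 5 blue points all have a mean signal under 6.

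Trh, which encodes the precursor of thyrotropin-releasing hormone, had the largest difference among the genes that passed the test and were well above background on all 6 arrays. The log2 signal of Trh was 10.75, 10.73 and 10.58 in DOPA 1 to 3 and 7.57, 7.76 and 7.79 in HFS 1 to 3. The groups lay far apart, and each DOPA array was above every HFS array. Trh was 7.87-fold higher in DOPA (DOPA minus HFS 2.98, SE 0.15, n = 3 pairs, limma adjusted p = 0.0116).

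Pdyn, the dynorphin precursor of direct pathway neurons, followed the same order but lay just outside the limit. Its log2 signal was 16.01, 16.14 and 15.91 in DOPA and 14.76, 14.68 and 14.32 in HFS. The lowest DOPA array was above the highest HFS array. The difference was 2.70-fold (DOPA minus HFS 1.43, SE 0.15, n = 3 pairs, limma adjusted p = 0.107), and without the block the adjusted p was 0.0738. Nmu, which encodes the gut and brain peptide neuromedin U, gave 8.67, 9.24 and 8.53 in DOPA and 7.40, 6.73 and 7.13 in HFS. Its groups did not overlap either, with a difference of 1.73 (SE 0.27, n = 3 pairs, limma adjusted p = 0.183).

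The gene lists used here and below were written with earlier results of these data known. Their shares beside those of all genes are therefore a description only. Among 34 neuropeptide and secretory granule genes tested, 1 passed the test (Trh). Of the 34, 7 had all DOPA arrays above all HFS arrays (20.6%, against 6.58% of all genes) and 1 had them below (2.94%, against 7.34%). The list median was 0.06, beside -0.01 over all genes. Tac3, the neurokinin B precursor, had a difference of 0.96 (SE 0.19) and Scg2, a granin of secretory granules, one of 0.84 (SE 0.19). Nts, the neurotensin precursor, stood at 0.40 and Chgb, another granin, at 0.38. Tac1, the substance P precursor of the same direct pathway neurons as Pdyn, had its DOPA arrays below its HFS arrays, by only 0.20 (DOPA minus HFS -0.20, SE 0.14, limma adjusted p = 0.681). Penk, the enkephalin precursor of indirect pathway neurons, had overlapping groups (16.82, 16.43 and 16.63 in DOPA, 16.57, 16.38 and 16.66 in HFS). The promoters of the 3 peptide genes with the largest differences are given for reference, as the 250 bases before the start annotated by RefSeq in build GRCr8. The capitals mark TGACG, the core of the cAMP response element, and TGANTCA, the AP-1 element, on either strand:
Trh, chr4:126301763-126302012, minus strand: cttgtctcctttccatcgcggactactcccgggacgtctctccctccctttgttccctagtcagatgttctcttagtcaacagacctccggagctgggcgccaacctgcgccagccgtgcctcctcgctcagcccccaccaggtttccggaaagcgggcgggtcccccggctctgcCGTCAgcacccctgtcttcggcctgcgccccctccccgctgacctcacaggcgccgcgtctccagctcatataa
Nmu, chr14:32198693-32198942, plus strand: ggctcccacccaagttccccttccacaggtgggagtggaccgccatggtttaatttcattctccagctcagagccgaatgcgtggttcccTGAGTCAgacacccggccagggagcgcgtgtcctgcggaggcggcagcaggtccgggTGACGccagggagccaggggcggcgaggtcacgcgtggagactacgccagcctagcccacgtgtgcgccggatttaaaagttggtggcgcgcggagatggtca
Pdyn, chr3:137366504-137366753, minus strand: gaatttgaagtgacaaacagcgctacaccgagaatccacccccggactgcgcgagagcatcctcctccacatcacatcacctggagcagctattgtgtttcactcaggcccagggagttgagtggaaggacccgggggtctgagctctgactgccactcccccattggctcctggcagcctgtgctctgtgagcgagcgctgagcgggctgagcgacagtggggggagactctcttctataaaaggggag
Trh held TGACG once (as CGTCA), Nmu held TGACG and TGANTCA, and Pdyn held neither in this window. Of 33469 promoters in that table, 18.2% held TGACG, 6.34% TGANTCA and 1.59% the full palindrome TGACGTCA, which includes TGACG and was in none of the 3 windows. Of 39 genes looked up, 17 had an entry.

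Besides Trh, 4 of the genes higher in DOPA could be measured on all 6 arrays. Wnt10a, a secreted Wnt ligand, gave 10.12, 10.69 and 10.17 in DOPA and 7.46, 8.25 and 8.30 in HFS. It was 5.01-fold higher in DOPA (DOPA minus HFS 2.33, SE 0.20, n = 3 pairs, limma adjusted p = 0.067). Igsf5, an immunoglobulin-family adhesion protein of cell junctions, gave 8.10, 7.88 and 7.59 in DOPA and 5.70, 6.00 and 5.84 in HFS. It was 4.02-fold higher (2.01, SE 0.18, n = 3 pairs, limma adjusted p = 0.0741). The others were a gene annotated as similar to suprabasin, a secreted epidermal protein (2.17, SE 0.21), and the clone TC533553, which carries no gene name (2.19, SE 0.15). In each of these genes the lowest DOPA array was above the highest HFS array by over 1 unit.

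For 5 other genes higher in DOPA no HFS array gave a signal well above background, so their fold is given as a lower bound, taken against the higher of the gene's own signal and the dimmest measurable signal on each HFS array. Cryba2, which encodes a lens crystallin, gave 6.90, 6.89 and 6.92 in DOPA and was at least 11.1-fold higher (limma adjusted p = 0.039). Prom2, a prominin of membrane protrusions, was at least 8.34-fold higher (limma adjusted p = 0.0411). Ambp, the precursor of alpha-1-microglobulin and bikunin, was at least 6.15-fold higher (limma adjusted p = 0.0116). Amhr2, the type II receptor of anti-Müllerian hormone, was at least 6.11-fold higher, with 6.35, 6.21 and 6.20 in DOPA (limma adjusted p = 0.0179). The fifth was the unnamed clone TC523154, at 10.25, 10.02 and 10.13 in DOPA and at least 65.9-fold higher (limma adjusted p = 0.00143). The last of the 11, a gene annotated as similar to an eEF1A2-binding protein, was measurable on 3 DOPA arrays and 1 HFS array (DOPA minus HFS 2.28, SE 0.18). For TC523154, Cryba2 and Amhr2 the gene's own signal was the higher on the HFS arrays. Their value is thus the plain fold against an undetected signal and no strict bound. The size of these differences depended on the background correction, and the bounds hold for the scanner's own correction only. With normexp the difference was 0.98 for Cryba2, 0.79 for Amhr2, 0.80 for Prom2, 0.57 for Ambp and 3.15 for TC523154, and in the deposited log2 table it was 1.13, 0.92, 0.92, 0.68 and 3.48. Ambp did not pass the test in either (limma adjusted p = 0.206 and 0.134), and Prom2 did not with normexp (limma adjusted p = 0.134). Of the 11 genes higher and 5 lower in DOPA, 8 and 1 were also called with normexp. These genes were at low levels: apart from TC523154, none of the 5 had a DOPA signal over 7. The 5 passed the probe filter through their DOPA arrays alone. With no HFS signal well above background, their adjusted p does not test a measured difference.

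The 5 genes lower in DOPA were low in HFS too, with no HFS array above 8, and for 4 of them no DOPA array was well above background. Pbk, a serine/threonine kinase of dividing cells, gave 5.96, 5.30 and 5.16 in HFS and was at least 4.32-fold lower in DOPA (limma adjusted p = 0.0707). Mlf1, a gene of the ependyma list described below, gave 7.77, 5.71 and 6.18 in HFS and 5.48, 3.94 and 4.48 in DOPA, where 1 array was well above background. It was 3.78-fold lower in DOPA (DOPA minus HFS -1.92, SE 0.17, n = 3 pairs, limma adjusted p = 0.0741) and its groups came close without overlapping. The other 3 carry clone names only, among them BI395793, at least 16.2-fold lower in DOPA (limma adjusted p = 0.0102). The 4 genes with no DOPA array well above background passed the probe filter through their HFS arrays alone. Their adjusted p therefore does not test a measured difference.

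The genes with the largest separated differences in each direction were named whether or not they passed the test. Together with the genes above they made 19 genes higher and 18 lower in DOPA. On the higher side 11 of 19 were well above background on all 6 arrays, and on the lower side 1 of 18 was. For 15 of the 18, no DOPA array was. The size of these differences depended on how background was handled: the median of the 18 was -1.92 here, -0.42 with a normexp correction and -0.49 in the authors' deposited log2 table, while the median of the 11 well measured higher genes was 2.17, 1.44 and 1.60. The lower share of spots above background in DOPA moved with the lower side, and its part in these differences was not tested. Among genes with separated groups and a difference over 1, 65 were higher and 53 lower in DOPA when only probes well above background on all 6 arrays were counted, against 87 and 151 without that limit.

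Ctsk, the lysosomal protease cathepsin K, gave 9.79, 9.73 and 9.67 in DOPA and 8.46, 7.75 and 7.64 in HFS. Its groups were separate by over 1 unit, but it did not pass the test (DOPA minus HFS 1.78, SE 0.19, n = 3 pairs, limma adjusted p = 0.107). Ngfr, the p75 neurotrophin receptor, gave 8.65, 9.79 and 7.34 in DOPA and 6.00, 6.17 and 6.41 in HFS. All DOPA arrays were higher, yet DOPA 3 lay 0.93 above its HFS partner and DOPA 2 lay 3.62 above (2.40, SE 0.49, n = 3 pairs, limma adjusted p = 0.271). Hpgd, which degrades prostaglandins, was similarly uneven (2.18, SE 0.49), since HFS 2 stood at 8.39 and the other HFS arrays at 6.58 and 6.07. Gys2, a glycogen synthase, had a difference of 1.68 (SE 0.31). Tnfsf9, a cytokine of the tumor necrosis factor family, and Plek2, a pleckstrin, had no HFS array well above background. They were 4.54-fold and 5.03-fold higher in DOPA, without passing the test (limma adjusted p = 0.14 and 0.107). These are plain folds against an undetected signal and no strict bounds.

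On the lower side Cnmd, the cartilage protein chondromodulin, rested mostly on HFS 1: it gave 11.20, 6.25 and 6.97 in HFS and was well above background on no DOPA array. Albumin (Alb) was the single gene measured on all 6 arrays, at 9.78, 9.88 and 9.62 in HFS and 5.33, 9.59 and 8.64 in DOPA. It rested mostly on DOPA 1 and did not pass the test (DOPA minus HFS -1.91, SE 0.78, n = 3 pairs, limma adjusted p = 0.541). The others did not pass the test either, and except for Cimap3 no DOPA array was well above background, so that their folds are bounded as above. For Stoml3, Ttll2 and Ak7 the value is the plain fold against an undetected signal and no strict bound. Several encode parts of cilia or of tubulin modification: Armc4, Ak7 and Ttll2 were at least 3.64-fold, 3.12-fold and 3.34-fold lower in DOPA, and Cimap3, measurable on 1 DOPA array, had a difference of -1.75 (SE 0.47). Rrm2, a subunit of the enzyme that makes deoxyribonucleotides, and Kif2c, a kinesin of mitosis, were at least 3.31-fold and 3.13-fold lower. The bounds were 3.68-fold for Pard6g, a polarity protein, 3.82-fold for Slc16a8, a lactate transporter, 3.36-fold for Stoml3, a stomatin-like membrane protein, 2.80-fold for Col22a1, a collagen, and 2.91-fold for Irs3, an insulin receptor substrate.

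**Figure D2:**
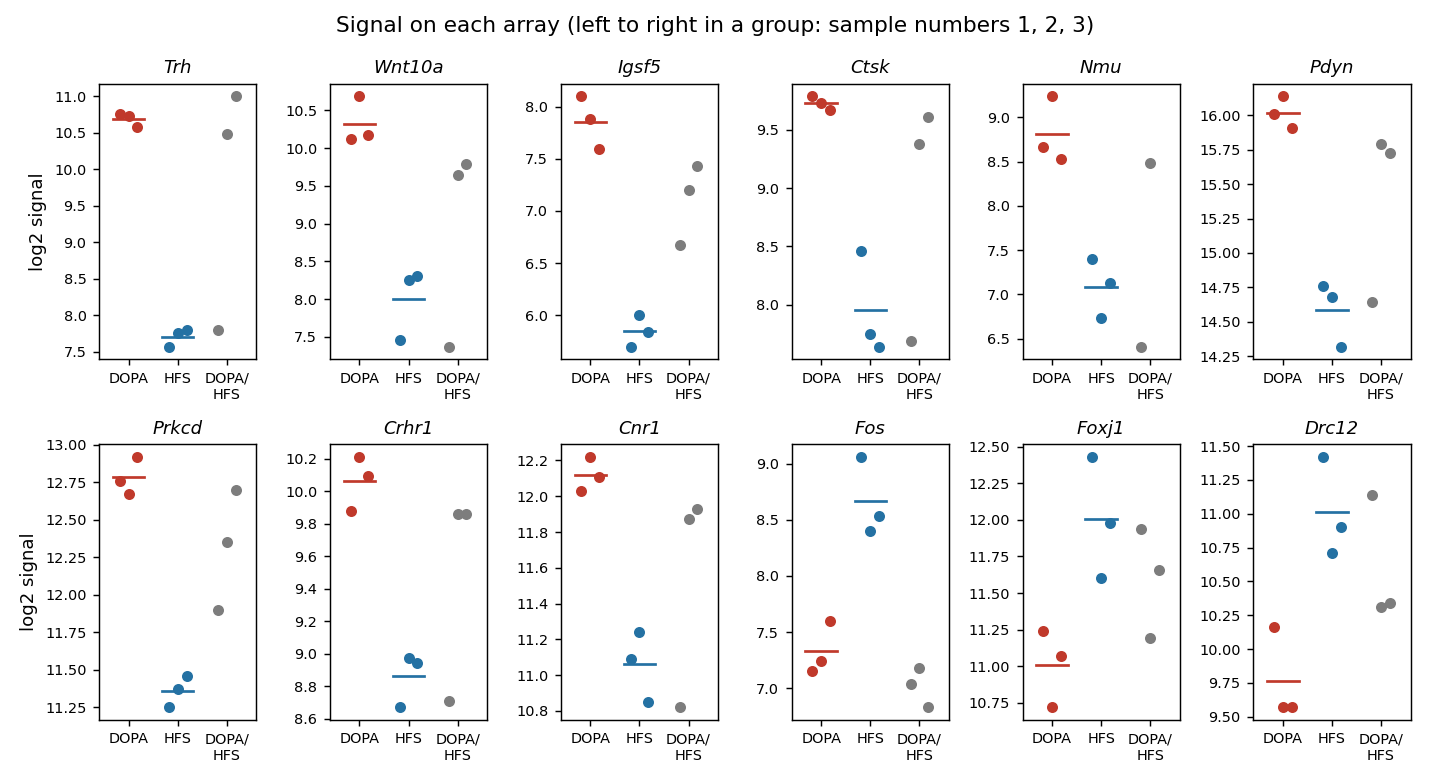
Log2 signal of 12 genes on each array, with sample numbers 1 to 3 from left to right in a group and a line at the mean of DOPA and of HFS. DOPA and HFS do not overlap in any panel; in the panels from Trh to Cnr1 the DOPA/HFS points lie near DOPA on arrays 2 and 3 more often than on array 1.

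Receptors for transmitters and peptides gave several of the better measured differences. Of 55 tested, 8 had all DOPA arrays above all HFS arrays (14.5%, against 6.58% of all genes), 5 had them below (9.09%, near the 7.34% of all genes) and none passed the test with the main probe filter, while 14 of the 55 had p under 0.05 (10 higher and 4 lower in DOPA), against 1911 of 20395 genes. Crhr1, a receptor of corticotropin-releasing hormone, gave 9.88, 10.21 and 10.09 in DOPA and 8.67, 8.97 and 8.94 in HFS (DOPA minus HFS 1.2, SE 0.14, n = 3 pairs, limma adjusted p = 0.109). Cnr1, the CB1 cannabinoid receptor, gave 12.03, 12.22 and 12.11 in DOPA and 11.09, 11.24 and 10.85 in HFS (1.06, SE 0.15, n = 3 pairs, limma adjusted p = 0.145). In both genes the spread within a group was under 0.4 and the gap between the groups larger. Hcrtr1, an orexin receptor, stood at 1.56 (SE 0.21), Npy5r, a neuropeptide Y receptor, at 1.16 (SE 0.19), and Mas1, a receptor of angiotensin peptides, at 1.14 (SE 0.14). On the other side Grm5, a metabotropic glutamate receptor, gave 8.85, 8.73 and 8.71 in DOPA and 9.29, 9.62 and 9.47 in HFS (-0.70, SE 0.16, limma adjusted p = 0.304). Chrna7, the nicotinic alpha 7 subunit, was 0.44 lower in DOPA (DOPA minus HFS -0.44, SE 0.14, limma adjusted p = 0.45). Hcrtr1, Crhr1, Mas1 and Cnr1 passed the limit when probes had to be well above background on all 3 arrays of a group (limma adjusted p = 0.0903, 0.0711, 0.084 and 0.0969). The study lists these same receptors as changed by L-DOPA, on arrays that include these, so they are no independent evidence.

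Prkcd, the delta isoform of protein kinase C, was the 1 tested member of its family with DOPA above HFS on all arrays. It gave 12.76, 12.67 and 12.92 in DOPA and 11.25, 11.37 and 11.46 in HFS. The groups were apart by over 1 unit at their nearest arrays, and the difference was 2.68-fold (DOPA minus HFS 1.42, SE 0.14, n = 3 pairs, limma adjusted p = 0.103, and 0.0398 without the block). Of 12 protein kinase C genes tested, 1 had its DOPA arrays above its HFS arrays (8.33%, near the 6.58% of all genes) and 3 had them below (25.0%, against 7.34%). Among the latter was Prkcq, the theta isoform, at -0.52 (SE 0.20).

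Among genes for structural proteins of neurons and muscle none passed the test with the main probe filter, and the list median was -0.01. Tnnt1, a troponin T, gave 11.49, 10.89 and 11.10 in DOPA and 9.61, 9.96 and 9.36 in HFS (1.52, SE 0.22, limma adjusted p = 0.161). Tnni3, a troponin I, stood at 1.18 (SE 0.20) and Nefh, the heavy neurofilament subunit, at 1.15 (SE 0.14). Dcx, doublecortin of migrating young neurons, gave 9.59, 8.96 and 9.37 in DOPA and 10.11, 10.27 and 10.06 in HFS (-0.84, SE 0.20, limma adjusted p = 0.322). Of the 32 tested, 5 had DOPA above HFS (15.6%, against 6.58% of all genes) and 4 below (12.5%, against 7.34%). Among 49 potassium channel genes the shares were 6.12% and 2.04%, near or under those of all genes.

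The dopamine synapse list had 18 genes tested, of which 5 had DOPA above HFS (27.8%, against 6.58% of all genes), 3 had DOPA below (16.7%, against 7.34%) and none passed the test. Th, tyrosine hydroxylase of dopamine synthesis, gave 5.96, 5.6 and 6.05 in DOPA and 5.31, 5.34 and 5.36 in HFS (0.53, SE 0.16, n = 3 pairs, limma adjusted p = 0.436). Aldh1a1, an aldehyde dehydrogenase of dopamine neurons, stood at 0.49 (SE 0.14). Maob, a monoamine oxidase that breaks dopamine down, gave 9.62, 9.74 and 9.57 in DOPA and 10.17, 10.58 and 10.18 in HFS (-0.66, SE 0.15, limma adjusted p = 0.293). Ddc, which converts L-DOPA to dopamine, was 0.78 higher in DOPA (SE 0.21), with groups that overlapped because HFS 1 stood at 11.70 and DOPA 3 at 11.66. The receptors did not separate: Drd1 differed by 0.06 (SE 0.17) and Drd2 by 0.02 (SE 0.22). The direct pathway list had a median of 0.11 over 10 genes. Of these, 3 had DOPA above HFS (30%, against 6.58% of all genes) and 1 below (10%, near the 7.34% of all genes). The indirect pathway list had a median of -0.01 over 8 genes, with none above and 1 below (12.5%, against 7.34%). These shares rest on 1 to 3 genes and do not set the pathways apart.

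Immediate early genes, which are induced within minutes of activity, had a list median of -0.15. Fos, a subunit of AP-1, gave 7.15, 7.24 and 7.6 in DOPA and 9.06, 8.40 and 8.53 in HFS. It was 2.52-fold higher in HFS (DOPA minus HFS -1.34, SE 0.22, n = 3 pairs, limma adjusted p = 0.197), and its groups did not overlap. Junb, another AP-1 subunit, stood at -0.67 (SE 0.23), Fosl2 at -0.89 (SE 0.28) and Atf3, a stress-induced factor, at -0.74 (SE 0.20), all with separate groups. Egr2, a zinc finger factor, gave 11.22, 10.03 and 7.94 in HFS and 7.71, 7.99 and 8.18 in DOPA, so that HFS 3 lay among the DOPA arrays (-1.78, SE 0.67). Arc, an activity-induced synaptic protein, and Egr1 stood at -0.54 (SE 0.23) and -0.24 (SE 0.25) with overlap. Of 43 genes tested, 7 had DOPA below HFS (16.3%, against 7.34% of all genes) and 4 above (9.30%, near the 6.58% of all genes), none passed the test, and the median of the list was -0.53, -0.16 and 0.12 in sample numbers 1, 2 and 3. The killing of HFS rats at the end of stimulation and of DOPA rats hours after the drug falls together with the therapy.

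Of 50 trophic factor genes tested, 5 had DOPA above HFS (10.0%, against 6.58% of all genes) and 6 below (12.0%, against 7.34%), and none passed the test. Igf2, insulin-like growth factor 2, gave 11.67, 12.01 and 12.11 in DOPA and 13.41, 12.42 and 13.07 in HFS (-1.04, SE 0.27, n = 3 pairs, limma adjusted p = 0.363). Igfbp5, one of its binding proteins, stood at -1.16 (SE 0.27) and Mdk, the growth factor midkine, at -0.75 (SE 0.20). Grem1, an antagonist of bone morphogenetic proteins, stood at 0.95 (SE 0.16) and Inhba, an activin subunit, at 0.78 (SE 0.17), both higher in every DOPA array. Igf2 is also on the choroid plexus list that follows. Igfbp5 is also on a list of meningeal genes, which had a median of -0.03 over 17 genes, 8 of them positive and 9 negative.

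Markers of the ventricle wall were lower on the DOPA arrays. Of 9 ependyma genes tested, which encode parts and regulators of motile cilia, 8 had all DOPA arrays below all HFS arrays (88.9%, against 7.34% of all genes), all 9 differences were negative and 1 passed the test (Mlf1). Foxj1, the regulator of motile ciliogenesis, gave 11.24, 10.72 and 11.07 in DOPA and 12.43, 11.60 and 11.98 in HFS (-0.99, SE 0.15, n = 3 pairs, limma adjusted p = 0.166). Drc12, a subunit of the axonemal dynein regulatory complex, gave 10.16, 9.57 and 9.57 in DOPA and 11.42, 10.71 and 10.90 in HFS (-1.24, SE 0.14, n = 3 pairs, limma adjusted p = 0.107). Rsph1, a radial spoke protein, Dnah9, a dynein heavy chain, and Dynlrb2, a dynein light chain, stood at -1.19, -1.11 and -0.96. The list median was -0.99, and it was -1.18, -0.88 and -0.91 in the 3 sample numbers. Of these 9 genes, 8 were well above background on all 6 arrays. Drc12 passed the limit in 5 of 14 alternatives to the main processing and Foxj1 in 3 of 14. In bulk tissue, fewer cells of a type and less RNA per cell cannot be told apart.

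Choroid plexus genes were lower too, but unevenly. Ttr, transthyretin, the main secreted protein of that tissue, gave 16.26, 11.83 and 15.22 in HFS and 2.33, 10.27 and 13.77 in DOPA. DOPA 3 lay above HFS 2. On DOPA 1 Ttr was not well above background, so the difference in number 1 has no exact value, and it was -1.56 and -1.45 in numbers 2 and 3. Sostdc1, an inhibitor of Wnt and bone morphogenetic protein signals, gave 12.41, 7.95 and 11.61 in HFS and 5.23, 6.67 and 10.44 in DOPA. Kcnj13, Clic6, Otx2, Folr1 and Aqp1, further markers of that epithelium, had differences from -3.41 to -1.73 with groups that overlapped, though Kcnj13 and Clic6 were well above background on only 1 DOPA array. Of the 20 genes tested, 13 were well above background on all 6 arrays. Of 20 choroid plexus genes tested, 18 had a negative difference and none passed the test. Ttr, Sostdc1, Aqp1, Igf2 and Slc4a2 of this list are also among the genes the study lists as raised by stimulation. Separate groups with DOPA lower were seen in 4 (20%, against 7.34% of all genes). DOPA was higher in 1 (5.00%, near the 6.58% of all genes). The list median was -2.39, -0.55 and -1.04 in the 3 sample numbers. The log2 of the summed signal of the list ran from 14.78 to 15.39 in DOPA and from 14.89 to 16.90 in HFS, and that of the ependyma list from 12.08 to 12.59 and from 13.01 to 13.74. How much choroid plexus, ventricle wall or meninges the punches held was not measured. Their part in the cilia, Igf2, Igfbp5 and Ttr differences was not tested.

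**Figure D3:**
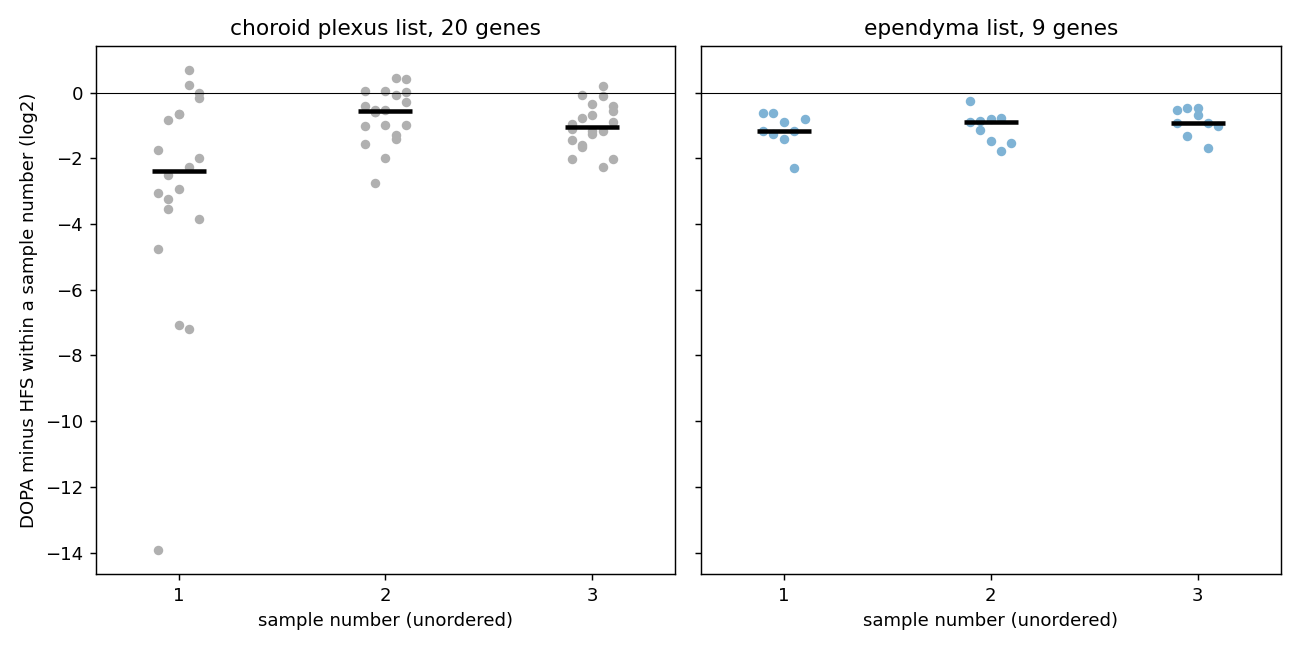
DOPA minus HFS within each sample number (log2, vertical axis) for the 20 choroid plexus genes and the 9 ependyma genes tested, 1 point a gene, with bars at the list medians. The ependyma points are negative in all 3 numbers, with medians from -1.18 to -0.88, and the choroid plexus points spread most in number 1, where the lowest point, Ttr, rests on a DOPA signal not well above background.

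Other cell types differed less. Endothelial genes leaned to DOPA, with 21 of 23 differences positive and a median of 0.23. Of them, 3 had DOPA above HFS (13.0%, against 6.58% of all genes) and none below. Among the 3 were Edn1, the vasoconstrictor endothelin (0.97, SE 0.24), and Ocln, a tight junction protein (0.44, SE 0.14). Oligodendrocyte genes leaned to HFS, with 2 of 20 differences positive and a median of -0.14. None had DOPA above HFS and 3 had DOPA below (15%, against 7.34% of all genes). Microglial genes had a median of 0.06 over 20 genes, with Ctsk and Lgals3, the lectin galectin-3, as the 2 with DOPA above HFS (Lgals3 1.53, SE 0.29). These 2 (10%) and the 1 below (5%) were near the shares of all genes. Astrocyte genes had a median of -0.14 over 13 genes, and 1 of them had DOPA above HFS (7.69%, near the 6.58% of all genes). Interferon response genes had a median of -0.25 over 20 genes. Of these, none had DOPA above HFS and 4 had DOPA below (20%, against 7.34% of all genes). They were Oas1i, Rsad2, Ifitm3 and Oasl2, antiviral effectors, at -0.90, -0.82, -0.73 and -0.37. Of 14 reference genes none had separate groups. None of the genes of these lists passed the test.

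**Figure D4:**
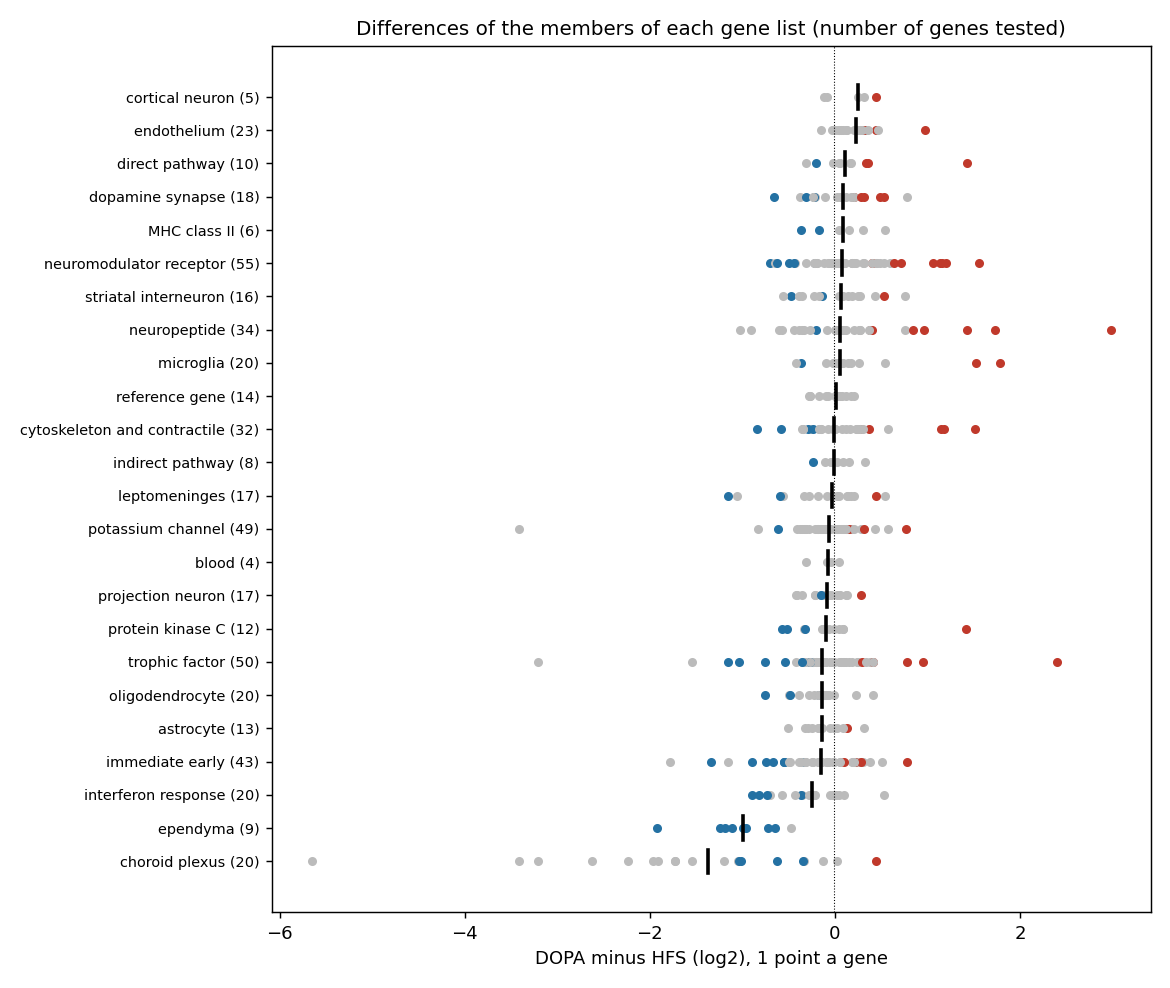
DOPA minus HFS (log2, horizontal axis) of each tested member of 24 gene lists, 1 point a gene, with the list median as a bar and the number of genes tested in brackets. Red points have all DOPA arrays above all HFS arrays, blue points all below, grey points overlap; the ependyma and choroid plexus lists have the lowest medians, -0.99 and -1.37, and the dotted line is the median of all genes, -0.01.

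A last set holds the 17 genes named in the study for both therapies. Of these, 2 (Prkcd and Emp3) were named for opposite directions and 15 for the same one, and the direct comparison asks whether the therapies left them at different levels. Emp3, an epithelial membrane protein, gave 9.95, 10.34 and 10.07 in DOPA and 9.20, 9.05 and 8.85 in HFS (1.08, SE 0.17, n = 3 pairs, limma adjusted p = 0.179), and with Prkcd it had the largest separate difference after Ngfr. Of the others, Ngfr and Bbc3, a pro-apoptotic protein, had DOPA above HFS (2.40 and 0.38), and Itpka, an inositol trisphosphate kinase, had DOPA below HFS by 0.15 (DOPA minus HFS -0.15, SE 0.15). Nr4a3, an orphan nuclear receptor induced by activity, gave 8.50, 8.78 and 8.65 in DOPA and 10.58, 10.12 and 8.67 in HFS, so that HFS 3 lay among the DOPA arrays (-1.15, SE 0.38). Galntl5, a glycosyltransferase-like protein, stood at -1.0 (SE 0.43). Slc18a2, the vesicular monoamine transporter, stood at -0.38, Adrb1, the beta-1 adrenergic receptor, at -0.19, Trpc4, a cation channel, at -0.19, and Btg2, an antiproliferative factor, at -0.17. Prkcb, the beta isoform of protein kinase C, Geft, a guanine nucleotide exchange factor, Sirt5, a mitochondrial deacylase, LOC683470, LOC684626 and LOC688966 lay between -0.08 and 0.09. None of the 17 passed the test, which does not show that their levels were the same: their standard errors ran from 0.14 to 0.49.

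**Figure D5:**
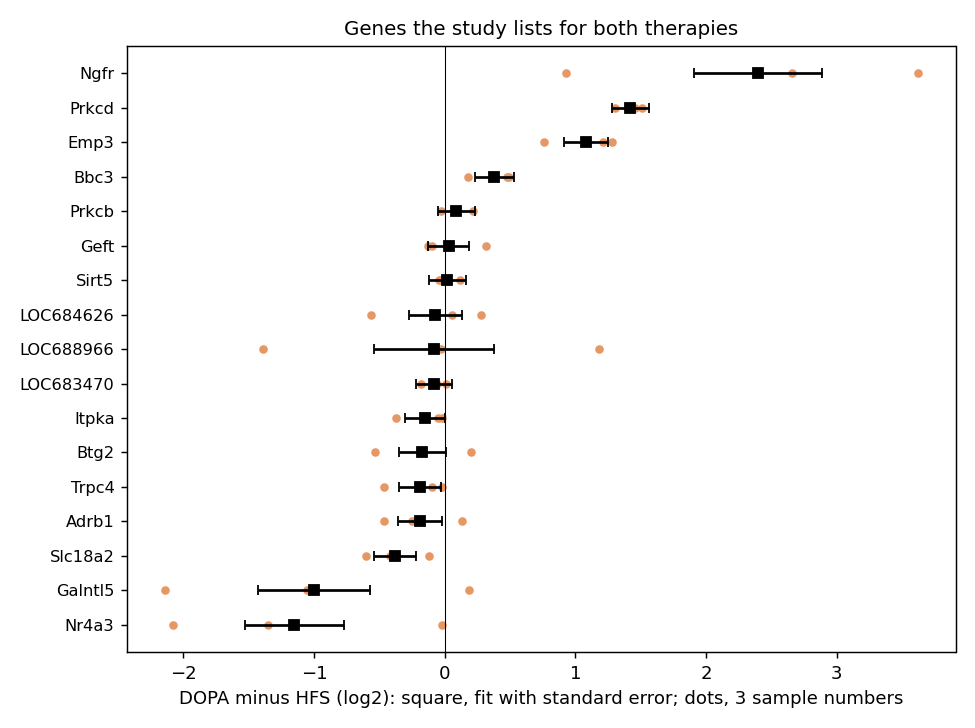
DOPA minus HFS (log2, horizontal axis) of the 17 genes that the study lists for both therapies, as the fitted difference with its standard error (squares and bars) and the 3 within-number differences (dots). Ngfr, Prkcd and Emp3 lie furthest to the right, at 2.40, 1.42 and 1.08, and Nr4a3 and Galntl5 furthest to the left, at -1.15 and -1.0.

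The study's own lists were chosen on arrays that include these 6, so their counts describe those choices and are no independent evidence. Of 79 genes it lists as raised by L-DOPA, 57 had DOPA above HFS (72.2%), none had DOPA below and 4 passed the test, with a median of 0.64. Of 86 tested genes it lists as lowered by L-DOPA, 29 had DOPA below HFS (33.7%), with a median of -0.29. Of 25 genes listed as raised by stimulation, 12 had DOPA below HFS (48.0%, median -0.44), and of 46 listed as lowered by stimulation, 20 had DOPA above HFS (43.5%, median 0.32).

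The 3 arrays of rats that received both therapies (DOPA/HFS) took no part in choosing the named genes and were set onto the same distribution. On DOPA/HFS 2 and 3, Trh stood at 10.48 and 11, beside the DOPA mean of 10.69. On DOPA/HFS 1 it stood at 7.80, beside the HFS mean of 7.71. Over the 19 named genes higher in DOPA, 0 of 19 were nearer to the DOPA mean than to the HFS mean on DOPA/HFS 1, 16 of 19 on DOPA/HFS 2 and 13 of 15 with a value on DOPA/HFS 3. The array labelled DOPA/HFS 1 thus stood apart from the other two for these genes, and Pdyn (14.64, 15.79 and 15.73), Crhr1 (8.71, 9.86 and 9.86), Cnr1 (10.82, 11.87 and 11.93) and Prkcd (11.90, 12.35 and 12.70) had their lowest value there too. The 18 named genes lower in DOPA gave a less clear order, with 2, 11 and 11 nearer to DOPA, of 18, 18 and 16 with a value. Fos stood at 7.04, 7.18 and 6.83 on the 3 arrays, below every HFS array. Ttr stood at 8.25, 9.23 and 2.75, below every HFS array. Foxj1 (11.94, 11.19 and 11.66) and Drc12 (11.14, 10.31 and 10.34) fell between or within both groups. DOPA/HFS 3 carried more spots marked as outliers than the others, which is why some genes have no value there.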

How the data were processed

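Male rat striatum was profiled on 12 one-colour Agilent 4x44K arrays, 3 per group, each with RNA of 1 animal. Scanner files were made by the authors with Feature Extraction (version 9.1 in the submitters' notes), and the deposited intensity is the background-subtracted, processed signal of each spot, in which very low values are replaced by surrogates, with flags for signals well above background and for outliers. The deposited table of log2 values, quantile normalised by the authors over 12 arrays, served as an alternative. From the 6 scanner files, log2 of the processed signal of non-control spots (outlier spots left out) was quantile normalised among the 6 arrays. Spots of a probe were averaged. A probe was kept where the share of the 6 arrays with a signal well above background reached 0.4, and a gene was taken from its brightest probe. Of 41012 probes, 10735 were named through RefSeq accessions and the rest by the file (its suffix for predicted genes is left off), giving 35623 genes, of which 20395 were tested. DOPA minus HFS was fitted with limma 3.58.1 in R 4.3.3, with the sample number as a block and Benjamini-Hochberg adjustment over all genes. The limits, taken from the study's methods, were 0.1 for the adjusted p and folds of 1.2 and 0.8. Deviations from group means of same-numbered arrays correlated at 0.103, 0.365 and 0.222 across genes, and those of other numbers at 0.0609 or less. Numbers also mark the slide, so the block was kept. The fit was tested on simulated data.

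Where no array of a group was well above background, a fold was taken against the higher of the gene's own signal and each array's dimmest measurable signal. Where the gene's own signal was the higher on every array of that group, the value equals the plain fold and is no strict bound. DOPA/HFS arrays were mapped onto the 6-array distribution and entered no fit; untreated arrays entered no step. Named genes were every gene past the limits, the 15 largest separated differences per direction among genes with a symbol and well above background on all arrays of the brighter group, members of 24 gene lists and the genes the study names for both therapies. The members and lists were chosen with earlier results of these data known. Array number limits the precision. With the sample number as a block, p-values measure how far the differences within same-numbered pairs of these animals vary. Spread shared by same-numbered arrays is removed, and limma draws the rest towards the spread of all genes. The p-values therefore do not measure the full spread between animals of a group. Other backgrounds, scalings, filters, thresholds, left-out arrays and SAM with 20 permutations were tried as alternatives.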

Additional observations from a re-analysis of the deposited data

How the results depend on the processing

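Over 121 named genes followed through 14 alternatives, 16 of the fitted differences changed sign. All were of genes whose difference here was between -0.24 and 0.09, except that of Rrm2, which is dim. Many of the 121 were named for separate or large differences, and every alternative used the same arrays. A kept sign was thus largely fixed by that choice and is no independent support. The number of genes called moved most, with these counts of genes higher and lower in DOPA: 29 and 37 with 75th percentile scaling, 22 and 11 with the normexp correction, 35 and 23 in the deposited log2 table, 37 and 42 for probes well above background on all 3 arrays of a group, and 0 and 0 without a filter, where 4562 and 2071 genes had separate groups. At an adjusted p under 0.05 they were 8 and 2. SAM without pairing, limited to genes with separate groups and past the fold limits, gave 42 and 5. The mean of all probes and keeping outlier spots each gave 10 and 5. Without the replicate block 16 and 5 genes were called, of which 8 and 3 were called with it. Leaving out a sample number gave 1 to 18 genes higher and 0 to 13 lower, with 2820 to 4137 and 3214 to 4637 separate genes: 1 and 2 calls without number 1, 18 and 13 without number 2, and 1 and 0 without number 3. The cause was not tested.

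Chosen after seeing the data, probes well above background on all 6 arrays gave 46 and 57 calls. Of these calls, 5 and 0 were among the 11 and 5 of the main fit, since the rest of the 11 and 5 did not pass that filter. Without the replicate block and without DOPA replicate 3 there were 6 and 2 calls and 2096 and 2240 separate genes, and without DOPA replicate 1 there were 10 and 19 calls and 1979 and 2588 separate genes. Differences of the other sign were 0.04 for Itpka with 75th percentile scaling, -0.04 for Sirt5 with normexp and in the deposited table, and 0.16 for Rrm2 without a filter. With 1 sample number left out, the difference ran from -0.35 to 0.01 for Btg2, -0.04 to 0.04 for Sirt5, -0.11 to 0.11 for Geft, -0.25 to 0.17 for LOC684626, -0.71 to 0.57 for LOC688966, -0.09 to 0.20 for Drd1 and -0.27 to 0.17 for Drd2. For Egr1 it ran from -0.58 to 0.02. Without the block and DOPA replicate 3, LOC684626 stood at 0.05 and LOC688966 at 0.19, and without DOPA replicate 1, Penk stood at -0.01 and Drd2 at -0.02. Trh passed the limit in 11 of 14 alternatives. Genes near background carry the least precision, and 3 arrays a group limit all of them.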

Other observations

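Genes of DNA replication and mitosis were gathered into a list after the values had been seen, so its counts are a description only. Of 45 members tested, 27 had all DOPA arrays below all HFS arrays (60.0%, against 7.34% of all genes). Another 2 had them above (4.44%, under the 6.58% of all genes), and 1 (Pbk) passed the test. The median was -0.68 over the list and -0.62, -0.70 and -0.47 in the 3 sample numbers. Top2a, the topoisomerase of dividing cells, had a difference of -1.43 and Cdk1, the kinase that drives entry into mitosis, one of -1.39. Ccna2, cyclin A, which no DOPA array measured above background, was at least 3.09-fold lower in DOPA. None of them was past the limit with the main probe filter. With probes well above background on all 3 arrays of a group they were (limma adjusted p = 0.0641, 0.0931 and 0.0622). Ccne1, a cyclin of the start of replication, had its DOPA arrays above its HFS arrays by 0.50. Of the 45, 29 were well above background on all 6 arrays. The log2 of the summed signal of the list ran from 14.22 to 14.44 in DOPA and from 14.29 to 14.57 in HFS, which overlapped.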
